A study of Mus musculus with 6 samples.

Results

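Type I IFNs act on cells through the receptor chain IFNAR1, and among the genes they are known to raise are effectors that block viruses inside the cell. A set of 8 such genes, the Mx, viperin, tetherin and restriction factor genes Mx1, Mx2, Rsad2, Cmpk2, Bst2, Apobec3, Samhd1 and Isg20, was chosen by name and compared between WT and Ifnar1-/- monocytes. All 8 were found by symbol among the 54232 genes of the deposited RNA-seq files, and all 8 were among the 11254 genes that had enough counts to be tested. The libraries came from mixed BM chimera mice with EAE, a mouse model of multiple sclerosis, and there were 3 WT and 3 Ifnar1-/- libraries. In these chimeras, irradiated GFP+ recipients carried an equal mixture of marrow from WT donors with the CD45.1 allele and Ifnar1-/- donors with the CD45.2 allele. EAE was induced 6-7 weeks after the transfer, and every mouse was given 30000 IU of IFN-β each day. Monocytes of both genotypes were then sorted from the CNS at the peak of disease as donor-derived (GFP-) CD45+CD11b+Ly6ChiLy6G- cells. Both groups were therefore from rIFN-β-treated mice, no library was from untreated mice, and the genotype of the receptor and the donor's CD45 strain cannot be told apart. There were 3 such recipients, and a library of either group may come from the same mouse as one of the other. The labels give neither the age of the mice nor which mouse stands behind a library, so p-values measure only the spread between these libraries.

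These genes act at different steps of a viral life cycle. Mx1 and Mx2 encode dynamin-like GTPases that form rings around incoming viral nucleocapsids. Rsad2 encodes viperin, a radical S-adenosylmethionine enzyme that turns CTP into a chain-terminating nucleotide, and its genomic neighbour Cmpk2 encodes a mitochondrial kinase of UMP and CMP. Bst2 encodes tetherin, also known as PDCA-1 in the mouse, which holds budding virions at the cell surface and is used as a surface marker of plasmacytoid dendritic cells (pDCs). Apobec3 encodes a cytidine deaminase that acts on retroviral DNA, Samhd1 a triphosphohydrolase that depletes the dNTP pool, and Isg20 a 3'-5' exonuclease of single-stranded RNA. Many inbred mouse strains carry disrupted alleles of Mx1 and Mx2, and gene counts say nothing of whether the transcripts encode an intact protein.

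Libraries held from 4531782 to 7321380 expected counts, the read numbers that RSEM estimates per gene, so that 3 counts corresponded to 0.410 to 0.662 CPM (counts scaled to library size). Mitochondrial ribosomal RNA took 12.3% to 17.6% of the counts in WT and 15.1% to 22.7% in Ifnar1-/- libraries. The deleted gene gave no check of the labels: Ifnar1 had 153, 126 and 111 normalized CPM in WT against 109.9, 102 and 109 in Ifnar1-/- libraries (log2 fold change 0.28, edgeR adjusted p = 0.360), and total counts do not show which exons were read. All 8 monocyte markers were detected, with sums of 7961 to 9716 normalized CPM in WT and 8404 to 9661 in Ifnar1-/- libraries. Ly6c2, a gene of the Ly6C antigen used in the sort, was higher in WT (log2 fold change 1.40, edgeR adjusted p = 0.00957), and the other 7 were not called by edgeR. Among these, Ccr2 had 648, 694 and 587 normalized CPM in WT against 1269, 794 and 905 in Ifnar1-/- libraries (log2 fold change -0.62, 95% interval -1.06 to -0.19, edgeR adjusted p = 0.143), and Fcgr1 had 413, 278 and 272 against 203, 194 and 192 (0.71, 95% interval 0.31 to 1.11, edgeR adjusted p = 0.0839). The groups were separate for both, and DESeq2 called Ccr2 lower and Fcgr1 higher in WT. Neutrophil markers summed to 149.5 to 1326 normalized CPM in WT and 339.6 to 1240 in Ifnar1-/- libraries, highest in library 3 of each group, although Ly6g reached at most 0.790 normalized CPM. For 4 other cell types, the summed marker levels did not overlap between the groups and were higher in every WT library, although single markers such as Tcf4, Siglech and Gzma overlapped. The 7 T cell markers summed to 18.5 to 41.3 normalized CPM in WT and 7.91 to 16.95 in Ifnar1-/- libraries, the 4 NK cell markers to 3.40 to 11.25 and 1.02 to 3.36, and the B cell markers to 1.49 to 1.71 and 0.305 to 1.10. The 6 pDC markers summed to 54.7 to 71.9 and 37.7 to 53.9, most of it Tcf4, while Siglech lay at 0.854 to 1.97 in WT and 0 to 0.920 in Ifnar1-/- libraries. For conventional dendritic cells and microglia the sums overlapped between the groups. The conventional dendritic cell markers summed to 17.1 to 26.8 normalized CPM in WT and 12.7 to 20.8 in Ifnar1-/- libraries. Microglia markers summed to 31.0 to 42.4 in WT and 41.85 to 43.6 in Ifnar1-/- libraries. Of the 6 T cell, 1 NK cell and 1 pDC markers with enough counts to be tested, 0 were called by edgeR, DESeq2 or limma-voom, although at an unadjusted edgeR p under 0.05 all 6 T cell markers and the NK cell marker were higher in WT. The part of such cells in the results that follow was not tested, and fewer expressing cells cannot be told apart from less RNA per cell.

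Of the 8 genes, 6 were higher in WT monocytes and 0 were lower, the latter also in DESeq2, limma-voom and at an unadjusted edgeR p under 0.05. Rsad2 differed most, by 32.3-fold, followed by Mx1 at 22.1-fold, Isg20 at 14.6-fold, Mx2 at 12.8-fold, Cmpk2 at 8.33-fold and Bst2 at 4.28-fold, whereas Apobec3 (1.55-fold) and Samhd1 (1.14-fold) did not pass the test. A gene was called when its adjusted p in edgeR's quasi-likelihood test was at most 0.05 and its fold change at least 1.5, which held for 1.67% of tested genes in the direction of higher in WT and for 0.462% in the direction of lower, the latter 52 genes that fell to 7 without WT library 3 or without Ifnar1-/- library 1. The median log2 fold change, given throughout as WT over Ifnar1-/-, was 3.37 for the 8 genes and -0.01 for all tested genes. In 7 of the 8 genes every WT library lay above every Ifnar1-/- library, an arrangement found in 11.1% of tested genes, and Samhd1 was the exception. A two-sided exact permutation test over libraries gave p = 0.1 for each of these 7 genes, the smallest value that 3 libraries against 3 allow. Mx2 and Isg20 reached the 1.78 CPM of the filter on low counts in 2 and in 1 of the 3 Ifnar1-/- libraries, so they entered the test through the WT group, and these counts are a description.

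**Figure D1:**
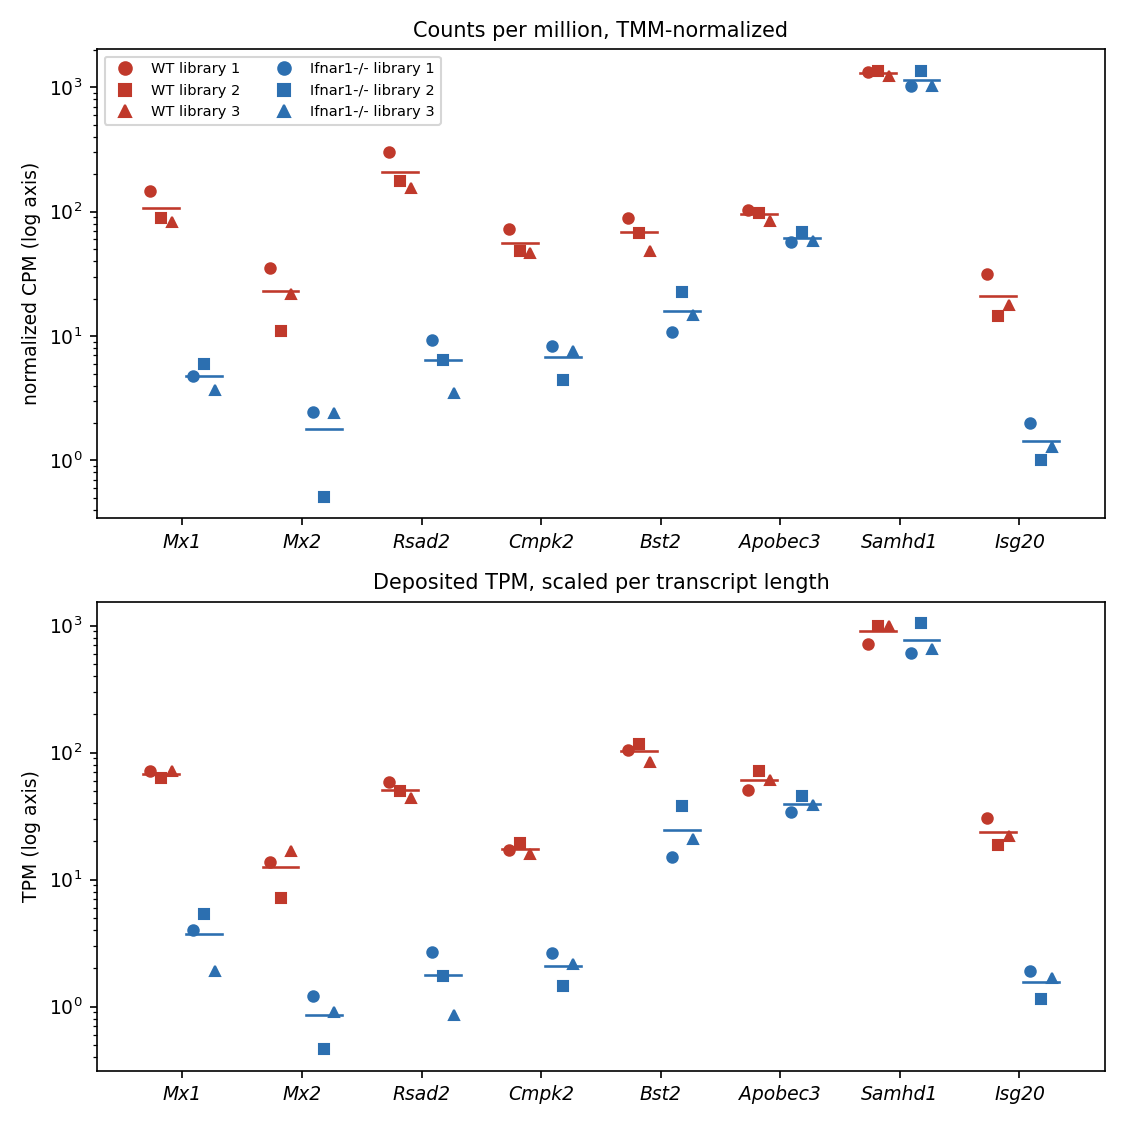
Level of each of the 8 genes in every library on log axes, as normalized CPM (counts scaled to library size, upper panel) and as deposited TPM (also scaled to transcript length, lower panel). Red symbols are WT and blue symbols Ifnar1-/- libraries, with circle, square and triangle for libraries 1, 2 and 3 and a line at the group mean. For Samhd1 the groups overlap in both panels, and for the other 7 genes every red symbol lies above every blue one.

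Since 6 of the genes were higher together, their promoter windows were read from RefSeq (build GRCm38.p6), from 250 bases before to 50 after the annotated start. RefSeq entries were found for 6 of the 8 genes, with Mx1 and Mx2 not among them. The windows were searched on both strands for the core of the ISRE, the interferon-stimulated response element, as GAAANNGAAA, and for the core of the GAS element, another element of IFN-responsive promoters, as TTCNNNGAA. Of all 32851 windows in the table, 3.44% held the ISRE core and 8.3% the GAS core. The ISRE core was found in windows of 3 of the 6 genes. This is a count of genes, of which Apobec3 had 2 windows and Isg20 3, whereas the shares above are per window. Rsad2 held it once on the reverse strand, from base -120 to -111. Bst2 held it at bases -130 to -121 and, overlapping, at -124 to -115, with a GAS core at -136 to -128 that overlaps the first of them. Apobec3 held it once on the reverse strand, at -140 to -131, in 1 of its 2 windows. Samhd1 held a GAS core at -235 to -227, Isg20 a GAS core at -73 to -65 in 1 of its 3 windows, and Cmpk2 neither. Thus the windows with an ISRE core included Apobec3, which was not called, and those without it included Cmpk2 and Isg20, which were. A match of letters is a description and not a binding site, and an element outside the window would not be seen. The windows below are the Rsad2 and Bst2 promoters of called genes with the core, that of the called neighbour Cmpk2 without it, and those of the 2 genes that were not called. They are given 5' to 3' on the gene's strand with the ISRE core in capitals, at chr12:26456403-26456702 (minus strand) for Rsad2, chr8:71537423-71537722 (minus) for Bst2, chr12:26468965-26469264 (plus) for Cmpk2, chr15:79892158-79892457 (plus) for Apobec3 and chr2:157135047-157135346 (minus) for Samhd1.
Rsad2: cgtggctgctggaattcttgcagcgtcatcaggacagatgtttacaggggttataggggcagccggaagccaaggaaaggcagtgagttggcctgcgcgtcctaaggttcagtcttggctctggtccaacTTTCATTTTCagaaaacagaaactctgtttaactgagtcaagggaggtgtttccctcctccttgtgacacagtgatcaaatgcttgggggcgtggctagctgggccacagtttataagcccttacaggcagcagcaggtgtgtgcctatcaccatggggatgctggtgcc
Bst2: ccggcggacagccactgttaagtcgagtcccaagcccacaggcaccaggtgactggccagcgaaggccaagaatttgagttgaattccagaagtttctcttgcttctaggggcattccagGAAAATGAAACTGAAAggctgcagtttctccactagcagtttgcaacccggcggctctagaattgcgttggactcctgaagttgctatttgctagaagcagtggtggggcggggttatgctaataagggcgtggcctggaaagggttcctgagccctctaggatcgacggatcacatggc
Cmpk2: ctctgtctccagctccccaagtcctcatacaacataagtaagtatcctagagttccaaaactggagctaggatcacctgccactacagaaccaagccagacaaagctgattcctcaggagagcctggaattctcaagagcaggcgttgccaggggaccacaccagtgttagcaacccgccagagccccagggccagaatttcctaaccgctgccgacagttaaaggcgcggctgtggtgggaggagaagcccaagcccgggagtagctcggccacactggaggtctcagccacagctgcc
Apobec3: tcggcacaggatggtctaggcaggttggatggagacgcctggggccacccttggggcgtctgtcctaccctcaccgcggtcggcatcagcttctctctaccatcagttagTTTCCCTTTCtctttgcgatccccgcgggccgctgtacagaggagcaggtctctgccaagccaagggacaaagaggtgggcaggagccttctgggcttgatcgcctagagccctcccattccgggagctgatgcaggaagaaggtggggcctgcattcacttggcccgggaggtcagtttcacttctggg
Samhd1: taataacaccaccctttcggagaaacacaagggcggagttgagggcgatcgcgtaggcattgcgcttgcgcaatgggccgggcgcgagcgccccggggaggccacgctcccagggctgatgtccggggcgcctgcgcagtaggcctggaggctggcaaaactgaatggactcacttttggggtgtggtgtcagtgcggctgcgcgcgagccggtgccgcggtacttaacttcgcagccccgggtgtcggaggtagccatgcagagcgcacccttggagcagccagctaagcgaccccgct

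The genes of the Mx GTPases were among those that differed most. Mx1 (ENSMUSG00000000386.15, GRCm38 chromosome 16, 97447035 to 97462907, minus strand) had 146, 89.5 and 83.1 normalized CPM across WT libraries 1, 2 and 3, against 4.73, 5.93 and 3.68 in Ifnar1-/- libraries 1, 2 and 3. WT library 1 was the highest, and the lowest WT library was still far above the highest Ifnar1-/- library. The log2 fold change of Mx1 was 4.47 (95% interval 3.85 to 5.08, edgeR adjusted p = 1.3e-05), the smallest p of the 8 genes. Mx2 (ENSMUSG00000023341.15, chromosome 16, 97535308 to 97560900, plus strand) had 35.6, 11.05 and 21.9 normalized CPM in WT against 2.44, 0.508 and 2.39 in Ifnar1-/- libraries. Ifnar1-/- library 2 held only 3 counts of Mx2, the detection floor, against 16 and 13 in the other Ifnar1-/- libraries. For Mx2 the log2 fold change was 3.68 (95% interval 2.54 to 4.82, edgeR adjusted p = 0.00359), the widest interval among the 8 genes. Where a read matches several genes RSEM splits it among them, and an expected count more than 0.001 from a whole number occurred in 2 of the 6 libraries for each of Mx1, Mx2 and Apobec3, in 1 for Samhd1 and in 0 for the other 4 genes.

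Mx1 and Mx2 lie head to head, with 72.4 kb between them, and 5.94 Mb (Mx1) and 6.03 Mb (Mx2) from Ifnar1 on the same chromosome. Whether the DNA around Ifnar1 differs between the donors beyond the knockout was not tested. The nearest tested genes on either side were Itgb2l, 1003416 bases from Mx1, and Prdm15, 230567 bases from Mx2. Their log2 fold changes were 1.49 (95% interval -0.44 to 3.41, edgeR adjusted p = 0.404) and 0.46 (95% interval -0.04 to 0.96, edgeR adjusted p = 0.314), and both overlapped between the groups. Itgb2l had 13, 13 and 106 counts in WT libraries 1, 2 and 3 against 12, 7 and 33 in Ifnar1-/- libraries. By TPM, which is scaled to transcript length, the ratio of Mx1 to Mx2 within a library was 5.21, 8.75 and 4.22 in WT and 3.30, 11.5 and 2.11 in Ifnar1-/- libraries. On the log2 scale with 0.1 TPM added, the ratio averaged 2.52 ± 0.54 (SD, n = 3) in WT against 1.97 ± 1.17 (SD, n = 3) in Ifnar1-/- libraries, a difference of 0.55 (two-sided exact permutation test, p = 0.5, and 0.5 adjusted over the 2 ratios examined). The library with the highest ratio in each group was library 2.

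The viperin gene and its neighbour were both higher in WT, Rsad2 by 32.3-fold (95% interval 18.6 to 56.1) and Cmpk2 by 8.33-fold (5.59 to 12.4). Rsad2 (ENSMUSG00000020641.16, chromosome 12, 26442746 to 26456452, minus strand) had 299.8, 176 and 155 normalized CPM in WT against 9.32, 6.44 and 3.49 in Ifnar1-/- libraries. All WT libraries were well above all Ifnar1-/- libraries, with library 1 the highest in either group. Its log2 fold change of 5.01 (95% interval 4.21 to 5.81, edgeR adjusted p = 3.1e-05) was the 6th highest of all 11254 tested genes. Cmpk2 (ENSMUSG00000020638.8, chromosome 12, 26469204 to 26479837, plus strand) had 72.9, 48.7 and 47.0 normalized CPM in WT against 8.25, 4.41 and 7.54 in Ifnar1-/- libraries. For Cmpk2 the log2 fold change was 3.06 (95% interval 2.48 to 3.64, edgeR adjusted p = 0.000127).

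Rsad2 and Cmpk2 also lie head to head, with 12.8 kb between them. Within a library, the ratio of Rsad2 to Cmpk2 by TPM was 3.43, 2.55 and 2.71 in WT and 1.02, 1.20 and 0.390 in Ifnar1-/- libraries. Rsad2 was thus above Cmpk2 in every WT library, close to it in Ifnar1-/- libraries 1 and 2, and below it in Ifnar1-/- library 3. On the log2 scale with 0.1 TPM added, the ratio averaged 1.52 ± 0.22 (SD, n = 3) in WT against -0.33 ± 0.81 (SD, n = 3) in Ifnar1-/- libraries, a difference of 1.85 (two-sided exact permutation test, p = 0.1, as low as 3 against 3 allow, and 0.2 adjusted over the 2 ratios). By normalized CPM, also with 0.1 added, the difference was 1.99. The next tested genes outside the pair did not pass the test: Rnf144a, 27492 bases from Rsad2, had a log2 fold change of 0.21 (95% interval -1.04 to 1.46, edgeR adjusted p = 0.888), and Rps7, 2151017 bases from Cmpk2, one of -0.50 (95% interval -0.90 to -0.11, edgeR adjusted p = 0.176).

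**Figure D2:**
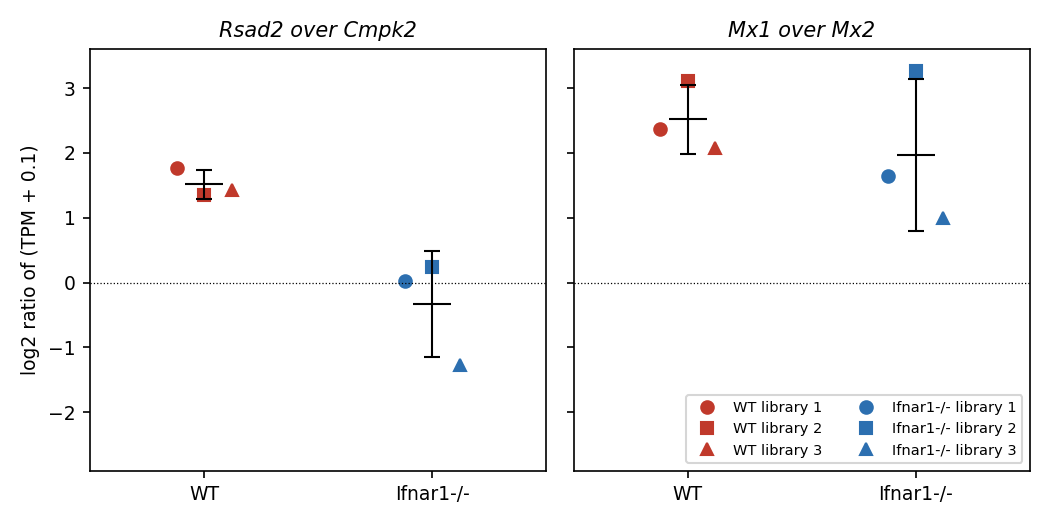
Within-library ratio of Rsad2 to Cmpk2 (left) and of Mx1 to Mx2 (right) on the log2 scale of TPM + 0.1, by genotype. Symbols are libraries 1, 2 and 3 (circle, square, triangle), and horizontal lines with bars are the mean and SD of 3 libraries. The Rsad2 to Cmpk2 ratios of the groups do not overlap, while the Mx1 to Mx2 ratios do.

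Viperin carries an iron-sulfur cluster, and the supply of such clusters is the task of a group of partner genes. The list of 8 genes used here as viperin partners was mostly, but not wholly, made of cytosolic iron-sulfur assembly factors. Of these 8 genes, 8 were tested and 0 were called by edgeR, DESeq2 or limma-voom. Their log2 fold changes ran from -0.53 to 0.25 with a median of -0.30, and 1 (Ciao2a) had an unadjusted edgeR p under 0.05. By mean normalized CPM over the 6 libraries, the highest were Ciao2a (log2 fold change -0.46, 95% interval -0.79 to -0.12, edgeR adjusted p = 0.155) and Nubp1 (-0.31, 95% interval -0.66 to 0.04, edgeR adjusted p = 0.337), the latter a scaffold of that machinery. Among 22 genes of nucleotide and dNTP metabolism, the pathway of Cmpk2 and Samhd1, 20 were tested, 3 were higher in WT and 0 were lower in edgeR, DESeq2 and limma-voom alike. Their log2 fold changes had a median of -0.13, and 2 genes (Nme1 and Nme2) were lower at an unadjusted edgeR p under 0.05. The 3 were Dck, the deoxycytidine kinase, with 83.7, 56.8 and 60.2 normalized CPM in WT against 20.8, 24.9 and 23.4 in Ifnar1-/- libraries (log2 fold change 1.54, edgeR adjusted p = 0.000988), Nt5c3, a pyrimidine 5'-nucleotidase (1.54, edgeR adjusted p = 0.00151), and Pnp, the purine nucleoside phosphorylase (0.93, edgeR adjusted p = 0.00462). For each of the 3, the groups of libraries were separate. Cmpk1, the cytosolic counterpart of Cmpk2, had 92.9, 126 and 105 normalized CPM in WT against 167, 115 and 124 in Ifnar1-/- libraries, with the groups overlapping (log2 fold change -0.33, 95% interval -0.73 to 0.07, edgeR adjusted p = 0.376). The nucleoside diphosphate kinase gene Nme2 was not called either (-0.60, 95% interval -0.92 to -0.27, edgeR adjusted p = 0.0705). Ribonucleotide reductase, which makes the dNTPs that SAMHD1 removes, had log2 fold changes of -0.16 for Rrm1, -0.51 for Rrm2 and 0.14 for Rrm2b, with overlapping groups and edgeR adjusted p of 0.804, 0.643 and 0.785.

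Bst2, the tetherin gene (ENSMUSG00000046718.8, chromosome 8, 71534255 to 71537456, minus strand), differed least among the 6 called genes. It had 89.1, 67.8 and 48.0 normalized CPM in WT against 10.7, 22.7 and 14.7 in Ifnar1-/- libraries. The groups did not overlap, and Ifnar1-/- library 2, the highest of its group, lay at less than the lowest WT value. The log2 fold change was 2.10 (95% interval 1.46 to 2.74, edgeR adjusted p = 0.00325). Ifnar1-/- libraries still held 70 to 134 counts of Bst2. The nearest tested gene, Mvb12a, lies 5466 bases away and had a log2 fold change of 0.52 (95% interval 0.17 to 0.86, edgeR adjusted p = 0.128), with groups that did not overlap. Gtpbp3 on the other side had one of 0.15 (95% interval -0.32 to 0.62, edgeR adjusted p = 0.755).

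Isg20 (ENSMUSG00000039236.18, chromosome 7, 78913424 to 78920396, plus strand) was higher in WT from a low level. It had 31.3, 14.45 and 17.8 normalized CPM in WT against 1.99, 1.02 and 1.29 in Ifnar1-/- libraries, the latter from 13, 6 and 7 counts. The groups were far apart, and with so few counts the Ifnar1-/- level carries a wide counting error. The log2 fold change was 3.87 (95% interval 3.02 to 4.72, edgeR adjusted p = 0.000347). Of 6 related genes of Isg20-like exonucleases, 6 were tested and 0 were called by edgeR, DESeq2 or limma-voom, or had an unadjusted edgeR p under 0.05, with log2 fold changes from -0.54 to 0.20. Among them, Aen, a related nuclease gene only 2215 bases from Isg20, had one of 0.20 (95% interval -0.33 to 0.73, edgeR adjusted p = 0.707), and Eri1 and Isg20l2, the highest of the list by mean normalized CPM, had -0.32 (edgeR adjusted p = 0.349) and -0.07 (edgeR adjusted p = 0.851). Mfge8, the nearest tested gene on the other side, had a log2 fold change of 0.60 (95% interval -0.08 to 1.28, edgeR adjusted p = 0.332).

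Apobec3 (ENSMUSG00000009585.18, chromosome 15, 79891659 to 79915906, plus strand) was the gene closest to the threshold. It had 104, 98.0 and 84.7 normalized CPM in WT against 57.3, 68.5 and 58.7 in Ifnar1-/- libraries. Every WT library was above every Ifnar1-/- library, by a smaller step than in the 6 called genes. The log2 fold change was 0.64 (95% interval 0.32 to 0.96), and its edgeR adjusted p was 0.0558, so it was not called. It was called with DESeq2 (adjusted p = 0.0113), without the filter on low counts (edgeR adjusted p = 0.00917), with at least 10 counts in every library (edgeR adjusted p = 0.0499) and with offsets for GC content and length (edgeR adjusted p = 0.0359), and over all alternatives the adjusted p ranged from 0.00917 to 0.485. Apobec3 overlaps the end of Cbx7 on the opposite strand, and whether the authors counted by strand is not given in the sources used here. Cbx7 held 11 to 30 counts per library against 319 to 729 for Apobec3, and D730005E14Rik, which overlaps on the same strand, held 0 to 3. Of the 4 related genes of the AID/APOBEC family, 1 was tested: Apobec1, an RNA-editing deaminase, had 113, 63.6 and 67.5 normalized CPM in WT against 60.0, 49.8 and 47.6 in Ifnar1-/- libraries (log2 fold change 0.64, 95% interval 0.15 to 1.12, edgeR adjusted p = 0.170). Apobec2 and Apobec4 were at 0 counts in every library.

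Samhd1 (ENSMUSG00000027639.16, chromosome 2, 157097533 to 157135265, minus strand) had the highest level of the 8 genes by normalized CPM and by TPM and did not pass the test. It had 1326, 1355 and 1226 normalized CPM in WT against 1030, 1365 and 1033 in Ifnar1-/- libraries. Ifnar1-/- library 2 was the highest of all 6, and the other Ifnar1-/- libraries were below every WT library. The log2 fold change was 0.19 (95% interval -0.19 to 0.57, edgeR adjusted p = 0.609), and an exact permutation test over libraries gave p = 0.4. The interval reaches up to 1.49-fold, so differences up to that size cannot be told from none with these libraries. The nearest tested genes, Soga1 and Rbl1, had log2 fold changes of 0.31 (95% interval -0.51 to 1.13, edgeR adjusted p = 0.706) and 0.21 (95% interval -0.11 to 0.53, edgeR adjusted p = 0.483). Around the 8 genes together there were 12 such nearest genes, of which 0 were called by edgeR, DESeq2 or limma-voom and 2 (Mvb12a and Rps7) had an unadjusted edgeR p under 0.05.

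**Figure D3:**
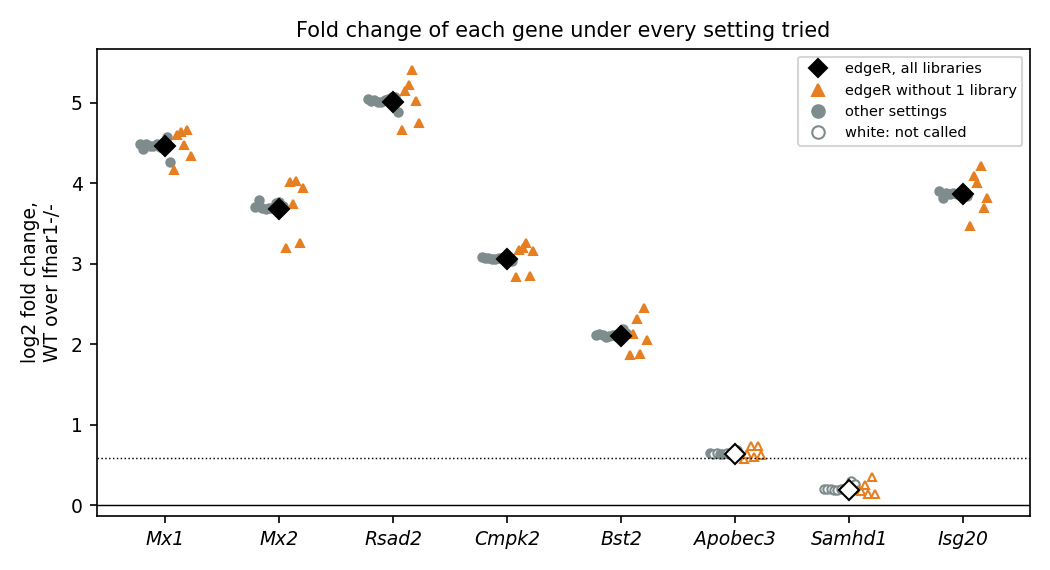
Log2 fold change (WT over Ifnar1-/-) of each of the 8 genes in the edgeR test of all 6 libraries (black diamonds), in edgeR tests that each left out 1 library (orange triangles) and under the other settings tried (grey circles), where white symbols were not called and the dotted line is the fold change threshold of 1.5. Mx2 ranged from 3.20 to 4.02 and Bst2 from 1.86 to 2.45, and the Apobec3 symbols lie at the threshold, from 0.58 to 0.74.

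Between genes, levels were compared by the deposited TPM, which allows for transcript length. In WT libraries Samhd1 was at 903 ± 165 TPM (SD, n = 3), Bst2 at 102 ± 17.0, Mx1 at 68.2 ± 4.94, Apobec3 at 60.7 ± 10.5, Rsad2 at 50.7 ± 7.67, Isg20 at 23.8 ± 5.98, Cmpk2 at 17.6 ± 1.76 and Mx2 at 12.5 ± 4.94. Samhd1 and Bst2 were each separate from the next gene in every library, while Mx1, Apobec3 and Rsad2 overlapped along this order, as did Isg20, Cmpk2 and Mx2. Within these runs Mx1 was still separate from Rsad2, and Isg20 from Mx2. In Ifnar1-/- libraries the order was Samhd1 at 769 ± 244 TPM (SD, n = 3), Apobec3 at 39.4 ± 5.47, Bst2 at 24.5 ± 11.8, Mx1 at 3.75 ± 1.71, Cmpk2 at 2.10 ± 0.599, Rsad2 at 1.76 ± 0.920, Isg20 at 1.57 ± 0.391 and Mx2 at 0.863 ± 0.382. Here Apobec3 and Bst2 overlapped, and each of the genes from Mx1 to Mx2 overlapped the next, although Mx1 was separate from Isg20 and Mx2, and Cmpk2 from Mx2. By mean TPM, Apobec3 was the 4th of the 8 genes in WT and the 2nd in Ifnar1-/- monocytes. Monocytes without the receptor thus still held Samhd1, Apobec3 and Bst2 transcripts at 15.05 TPM or more in every library, and each of the other 5 genes at 5.31 TPM or less.

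The choice of scale changed which WT library was highest. By normalized CPM it was WT library 1 for 7 of the 8 genes, including all 6 called, and for 156 of the 188 genes called higher in WT. By TPM it was WT library 1 for 3 of the 8 genes, Mx1, Rsad2 and Isg20, and for 48 of the 188. Effective lengths as estimated by RSEM ranged between libraries from 1022 to 1681 bases for Mx1 and from 1118 to 2303 for Mx2. The groups were separate on either scale for the same 7 genes.

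Other restriction factors offered a wider view of the same defence. Of 30 further genes with antiviral roles, 29 were tested, 17 were higher in WT, 0 were lower and 12 were not called, with a median log2 fold change of 1.19. DESeq2 and limma-voom called 0 lower as well, and at an unadjusted edgeR p under 0.05 the only lower gene was Ifitm1 (log2 fold change -0.54). Oas1a, which makes the second messenger that activates RNase L, had 178, 144 and 127 normalized CPM in WT against 5.96, 6.10 and 5.15 in Ifnar1-/- libraries (log2 fold change 4.70, edgeR adjusted p = 2.2e-06). Ifit2, an inhibitor of viral translation, and Ddx60, a helicase of RNA sensing, had log2 fold changes of 4.52 (edgeR adjusted p = 2.6e-06) and 3.36 (edgeR adjusted p = 7.0e-06). Those not called included, with the highest mean normalized CPM, Gbp2, a guanylate-binding protein gene, with 735, 897 and 935 normalized CPM in WT against 821, 1468 and 1006 in Ifnar1-/- libraries (log2 fold change -0.36, 95% interval -0.85 to 0.13, edgeR adjusted p = 0.430), and Serinc3, a membrane protein that limits retroviral infectivity (0.14, 95% interval -0.21 to 0.49, edgeR adjusted p = 0.695). As with the 8 genes, called genes covered a wide range of sizes, from 0.76 for Zc3hav1 to 5.23 for Ifit3. The dynamin family, the wider family of the Mx GTPases, had 0 called of 5 tested among 7 genes by edgeR, DESeq2 or limma-voom and 1 (Dnm1l) at an unadjusted edgeR p under 0.05, with Dnm2 at a log2 fold change of 0.44 (edgeR adjusted p = 0.308) and Opa1 at -0.23 (edgeR adjusted p = 0.422).

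**Figure D4:**
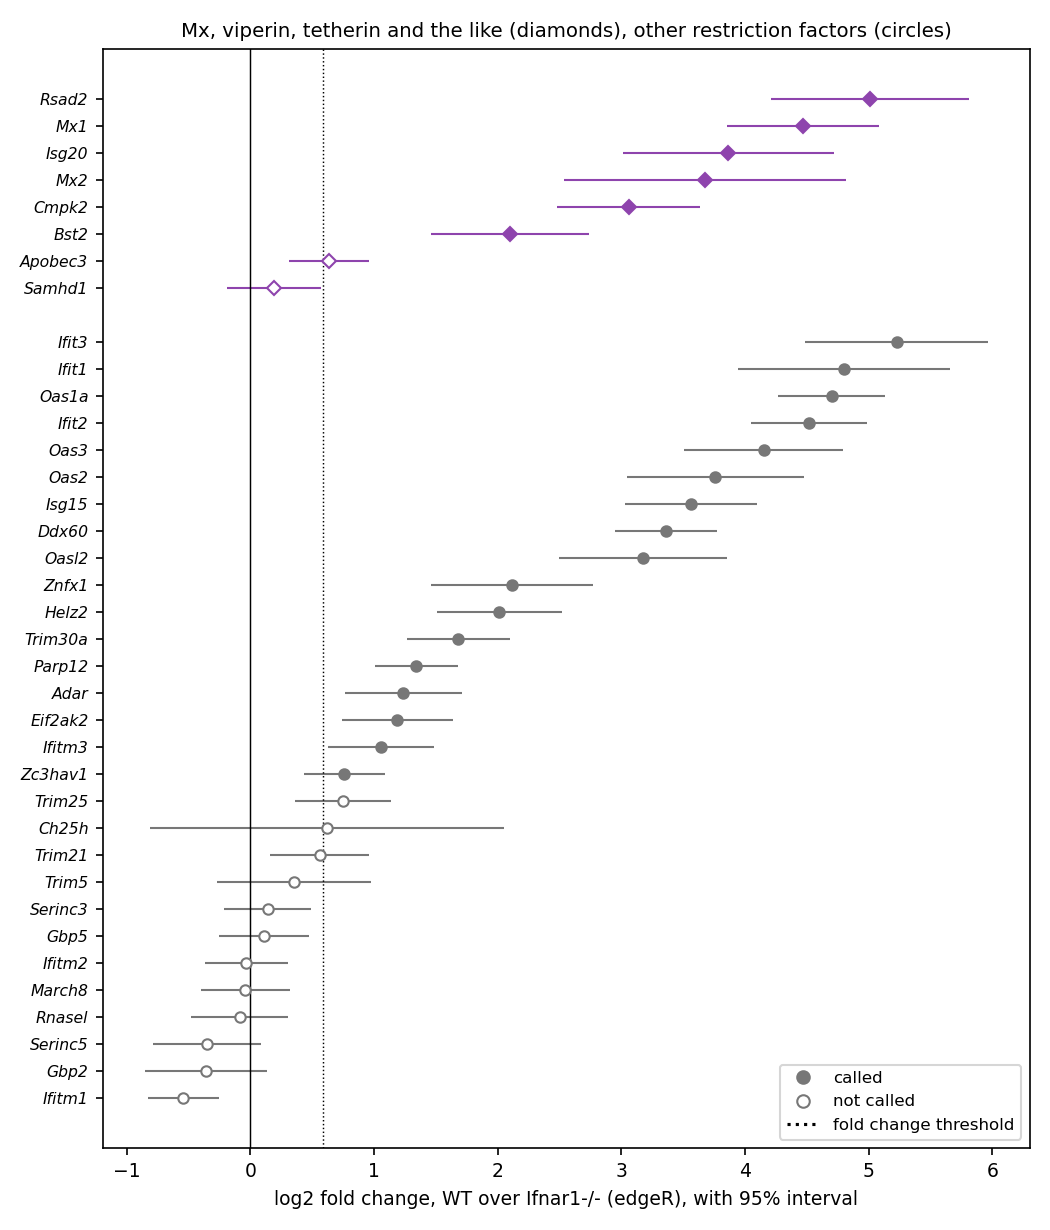
Log2 fold change (WT over Ifnar1-/-) of the 8 genes (diamonds) and of 29 tested genes of other restriction factors (circles) with 95% intervals derived from the edgeR test. Filled symbols were called, open symbols were not, and the dotted line marks a fold change of 1.5. In either set the called genes lie to the right of 0 and no called gene lies to the left.

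Of the type I IFN pathway, 10 genes were tested, 3 were higher in WT, 0 were lower and 7 were not called, and DESeq2 and limma-voom gave the same 3 genes. At an unadjusted edgeR p under 0.05, 0 were lower. Usp18, a negative regulator of the receptor, Irf7, a transcription factor of IFN genes, and Stat2 had log2 fold changes of 4.09 (edgeR adjusted p = 1.3e-05), 4.08 (edgeR adjusted p = 1.6e-05) and 2.04 (edgeR adjusted p = 0.000347). The kinase gene Jak1 had a log2 fold change of 0.10 (edgeR adjusted p = 0.813). Irf9, an interferon regulatory factor gene, was not called at 0.50 (95% interval 0.22 to 0.79, edgeR adjusted p = 0.0842). Across the 6 libraries, the genes outside the set whose centred log2 profiles lay nearest to the mean profile of the 8 were Tnfsf10 (Euclidean distance 0.440), Phf11a (0.667), Ddx58 (0.675), Slfn5 (0.739) and Nav1 (0.788). Their log2 fold changes were 2.79, 2.73, 2.38, 3.32 and 3.03, and all 5 were called higher in WT. A profile over 6 libraries in 2 groups mainly follows the difference between the groups, so this likeness is a description.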

How the data were processed

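Total RNA of sorted CNS monocytes was sequenced by the authors with paired-end reads and mapped to GRCm38. Per the submitters' processing notes, STAR 2.6.0c and RSEM 1.2.31 were used. The labels and the study's methods name different library kits. The authors deposited an expected count and a TPM for each of 54232 genes per library. The expected counts are estimates that divide shared reads and are not normalized, and the deposited TPM divide out effective transcript length and sum to the same total in every library. Gene identifiers were matched to GENCODE M21, with 67 left unmatched.

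Expected counts were rounded to whole numbers and tested by the quasi-likelihood test of edgeR 4.0.16 (R 4.3.3) after TMM normalization (filterByExpr with its minimum count of 10, Benjamini-Hochberg adjustment over the 11254 tested genes). All 6 libraries were used, grouped by the labels, with no block. Thresholds were those of the study's methods. Normalized CPM are counts per TMM-scaled library size. Single values were tested with two-sided exact permutation tests on log2 of normalized CPM + 0.5 or TPM + 0.1. Intervals of fold changes were derived from the edgeR test. Their SE was the absolute log2 fold change over the square root of the F statistic, multiplied by a t quantile. The floor of 3 counts covers counting error only.

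The 8 genes, the gene lists and the alternatives were chosen with earlier results of these data known. Besides the 8 genes, the text names Ifnar1, in each list the 3 called genes with the smallest p and the 2 not called with the highest mean normalized CPM, the nearest tested genes, and the 5 genes with the nearest profile. The ribonucleotide reductase genes, Nme1, Dnm1l, Ifitm1, Zc3hav1, Ifit3, Ccr2, Fcgr1 and the other markers were named after their values were seen. For 2 viperin partners the current symbols Ciao2a and Ciao2b replaced Fam96a and Fam96b. Alternatives were DESeq2 1.42.0, limma-voom (limma 3.58.1), RLE normalization, no filter, at least 10 counts in every library, removal of mitochondrial and ribosomal RNA genes, a replicate block with edgeR and with DESeq2, offsets for GC content and length, the adjusted p alone, each library left out and, added after seeing the data, limma on log2 of TPM + 0.1. Some single-gene results are left out of this text.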

Additional observations from a re-analysis of the deposited data

How the results depend on the processing

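The 6 called genes (Mx1, Mx2, Rsad2, Cmpk2, Bst2 and Isg20) were called in every setting in which they were tested, and Mx2 and Isg20 were not tested with at least 10 counts in every library. The number called among the 8 was 5 with at least 10 counts in every library, 7 with DESeq2, without the filter and with GC and length offsets, where Apobec3 was added, and 6 to 6 when 1 library was left out. The log2 fold change of Rsad2 ranged from 4.67 to 5.40, that of Mx1 from 4.17 to 4.66, of Isg20 from 3.47 to 4.21, of Cmpk2 from 2.83 to 3.26 and of Samhd1 from 0.13 to 0.35. Called genes of the other restriction factors numbered 13 to 18 when 1 library was left out, genes of the relatives 3 to 4, and those of the type I IFN pathway 3 to 3. Without the filter 5 relatives were called, with Nme2 (lower in WT) and Apobec1 (higher) added. Over all genes, 240 were called, 419 with DESeq2, 872 without the filter, 124 by limma on TPM, and 119 to 245 when 1 library was left out (148 without WT library 3, 119 without Ifnar1-/- library 1 and 120 without Ifnar1-/- library 3). Genes called lower numbered 52, and 105 with DESeq2, 262 without the filter, 29 with GC and length offsets, 13 by limma on TPM, 26 without WT library 1, 25 without Ifnar1-/- library 2, 7 without WT library 3 or Ifnar1-/- library 1, and 10 without Ifnar1-/- library 3. The causes were not tested. The difference in the log2 ratio of Rsad2 to Cmpk2 ranged from 1.38 to 2.14 when 1 library was left out, and that of Mx1 to Mx2 from 0.06 to 1.20, the lowest without Ifnar1-/- library 3 and the highest without Ifnar1-/- library 2.

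With the replicate number as a block, 6 of the 8 genes and 18 other restriction factors were called, and 220 of all genes. Deviations of same-numbered libraries correlated by 0.0872, 0.0265 and 0.289, but WT library 1 correlated better with Ifnar1-/- library 2 (0.101), so the numbers are not shown to pair the libraries. Low counts limit Mx2 and Isg20 most, with 3 to 16 and 6 to 13 counts in Ifnar1-/- libraries.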
